A study of Mus musculus with 15 samples.

Results

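MiR-135a and miR-135b are miRNAs of the miR-135 family, and every assay of the deposited tables that carries either name was taken, whatever its arm. This gave 4 of 584 miRNA assays. The assays mmu-miR-135a and mmu-miR-135b read the guide arm, which is the strand usually loaded into Argonaute, and lie on card A. The other 2 lie on card B and are named miR-135a*, an older name for the partner strand of the hairpin, with 1 designed for the mouse and 1 for the rat sequence. The pair of guide arms was selected on its measured ΔCt in the 2 cell lines at steady state, where it differed, so those differences are given as a description and without a test.

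A miRNA is cut from a hairpin precursor, and its guide strand pairs with target mRNAs mainly through the seed, bases 2 to 8 counted from the 5′ end. Such pairing lowers the stability and translation of the mRNA. MiR-135a and miR-135b share their seed and are therefore read as a family, but they come from separate genes, and a mouse carries a pair of miR-135a genes and a single miR-135b gene.

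TaqMan low density arrays, on which each well is a separate real-time PCR, gave the levels. αTC1-6 is a mouse glucagonoma line, a tumour line of the glucagon-producing alpha cell, and βTC1 is a mouse insulinoma line, its counterpart for the insulin-producing beta cell. The 15 samples make up 5 conditions with 3 replicates each. αTC1-6 were left without treatment for 24 h or 48 h, or were given IL1b at 50 IU/ml, IFNg at 1000 IU/ml and TNFa at 1000 IU/ml together for 24 h or 48 h. βTC1 were left without treatment for 24 h. The comparison of lines has 1 tumour-derived line of each kind, so cell type and line cannot be told apart. The methods describe the replicates as independent biological ones. A threshold cycle (Ct) is the PCR cycle at which the signal crosses a set level, and a lower Ct means more miRNA. ΔCt is the Ct minus that of miR-26a in the same sample, and differences between groups are of the negative ΔCt, on which 1 unit is 1 cycle and a factor of 2 if amplification is complete.

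The sequences of the mature arms were taken from RefSeq (GRCm38.p6), with the seed in capitals. They are shown because the values that follow set the assay of a guide arm against an assay named for its partner arm. The guide arm of miR-135a is the same from either hairpin, at chr9:106154140-106154162 on the + strand (Mir135a-1, between Glyctk and Wdr82) and at chr10:92072141-92072163 on the - strand (Mir135a-2, next to Rmst). The partner arms of the 2 hairpins differ in sequence, and so does the partner arm of miR-135b (Mir135b, next to Lemd1 on chromosome 1).
miR-135a-5p: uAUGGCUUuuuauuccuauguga
miR-135a-1-3p: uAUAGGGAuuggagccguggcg
miR-135a-2-3p: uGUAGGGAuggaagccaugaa
miR-135b-3p: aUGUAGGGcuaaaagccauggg
The seeds of the 3 partner arms are all different from each other and from that of the guide arm, and none of the 3 partner seeds was found in another of the 1679 mature mouse miRNAs of the RefSeq table. The partner arms of Mir135a-1 and Mir135a-2 have 15 identical bases in an alignment, of 22 and 21. The name miR-135a* does not say which hairpin an assay was designed on.

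As to the samples as a whole, miR-26a had a Ct from 17.0 to 18.98. MiR-375, an abundant miRNA of islets, had a Ct below that of miR-26a in both lines, with a ΔCt of -3.17 in untreated αTC1-6 and -4.24 in βTC1 at 24 h. Of 11 endocrine marker miRNAs, 6 had a Ct in all 3 samples of either line at 24 h. All 3 acinar marker miRNAs, miR-216a, miR-216b and miR-217, had a Ct in every βTC1 sample, with ΔCt means from 4.48 to 7.38, and in no untreated αTC1-6 sample of 24 h. Of 4 muscle miRNAs, 1 had a Ct in all 3 untreated αTC1-6 samples of 24 h and 2 in all βTC1 samples, and the counts were 2 and 3 of 4 for blood and 3 and 3 of 4 for endothelium and mesenchyme. MiR-122 of the liver had a Ct in 0 and 2 of these samples. The acinar miRNAs are thus higher in βTC1, as are the guide arms of miR-135, and their part in the differences of miR-135 was not tested. Card A held more assays with a Ct at 48 h (304 to 337 per sample) than in αTC1-6 at 24 h (214 to 258). At 24 h, 59 to 85 card A wells of a sample were undetermined in the normalized table while the non-normalized table gave a Ct, and at 48 h 0 or 1 was.

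MiR-135a was low in αTC1-6 and higher in βTC1. Its Ct was 24.29, 24.96 and 24.97 in the 3 βTC1 samples and 31.67, 31.91 and 32.73 in untreated αTC1-6 of 24 h. The lowest Ct of the 12 αTC1-6 samples was 30.96, the median 32.25 and the highest 35.93, so the narrowest gap between an αTC1-6 and a βTC1 sample was 5.98 cycles. In ΔCt, the means were 6.52 ± 0.81 in βTC1 and 14.03 ± 1.22 in αTC1-6 at 24 h (SD, n = 3 each). The difference of the negative ΔCt, αTC1-6 minus βTC1, was -7.51, which corresponds to 182-fold more miR-135a in βTC1 if amplification is complete.

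MiR-135b differed further. Its Ct was 21.90, 23.00 and 21.37 in βTC1 and 32.00, 32.04 and 30.89 in untreated αTC1-6 of 24 h. The means of ΔCt were 3.87 ± 0.37 and 13.57 ± 0.80 (SD, n = 3 each), a difference of -9.70 in negative ΔCt, or 831-fold. The Ct of replicate 2 of αTC1-6 was 29.96 in the non-normalized table, and with that table the ratio was 513-fold. In 1 of the 12 αTC1-6 samples, replicate 2 of the treated cells at 24 h, the normalized table gave no Ct for miR-135b and the non-normalized table gave 32.02. The remaining 11 had a Ct between 29.89 and 32.69, and again no αTC1-6 sample overlapped a βTC1 sample.

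Of 439 assays with values in all 6 samples of 24 h, 28.2% were lower in every αTC1-6 sample than in any βTC1 sample. Of the 326 miRNAs detected in all 6 samples, miR-135b ranked 3rd and miR-135a 5th from the lowest difference, after miR-19b (-12.26) and miR-222 (-10.10), and with miR-31 (-8.09) between them. MiRNAs that lacked a Ct in any of these samples, such as miR-221, were not ranked. In the non-normalized table miR-135b ranked 4th and miR-135a 7th of 406. With U6 and snoRNAs as the reference in place of miR-26a, the differences of miR-135a and miR-135b were -7.76 and -9.95. MiR-19b belongs to the miR-17-92 cluster, a group of miRNAs that promotes proliferation, and miR-222 is made from a gene shared with miR-221, which had no Ct in untreated αTC1-6 of 24 h and a mean ΔCt of 6.09 in βTC1. The median of these 326 miRNAs was -0.45, and 203 were lower in αTC1-6. Taken over all 12 αTC1-6 samples, 17.6% of the 278 miRNAs detected throughout were lower in each αTC1-6 sample than in each βTC1 sample. MiR-135a was among these, with the 4th widest gap between the groups (4.54 on the log2 scale), after miR-19b, miR-218 and miR-139-5p.

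**Figure D1:**
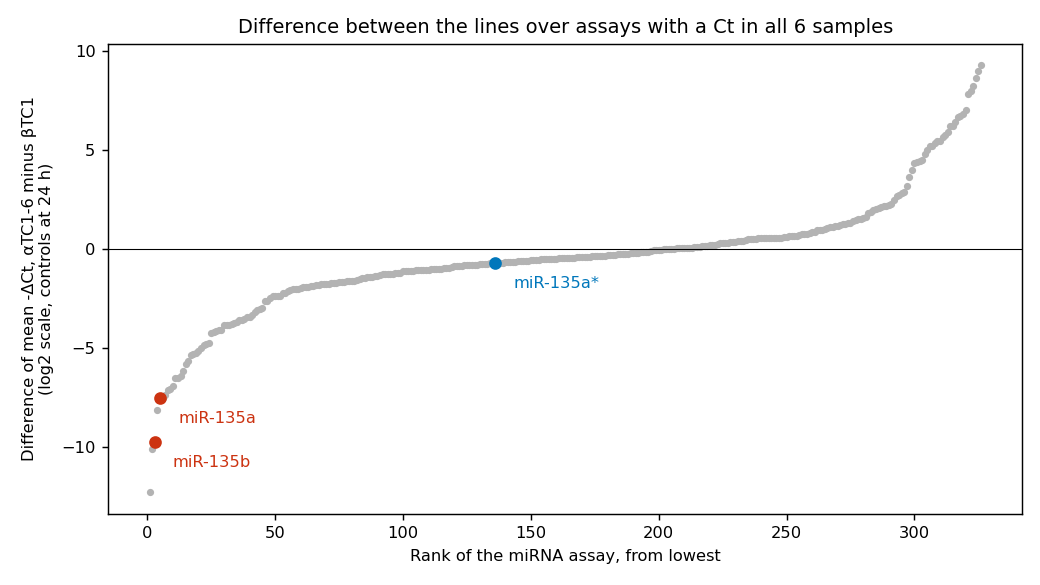
Difference of the mean negative ΔCt of untreated αTC1-6 minus βTC1 at 24 h (y axis, log2 scale), for the 326 miRNAs with a Ct in all 6 samples, in order of size (x axis, rank). Each dot is 1 assay, and miR-135a and miR-135b lie at the low end at -7.51 and -9.70, while miR-135a* lies in the middle of the distribution at -0.71.

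The mouse assay of miR-135a*, named for the partner arm of miR-135a, had a similar Ct in both lines. Whether it reads only that arm was not measured. On card B, miR-135a* had a Ct between 23.22 and 24.97 in all 15 samples, as means of 2 wells that differed by a median of 0.11 cycles. Its Ct was 23.22, 23.93 and 23.96 in βTC1 and 23.98, 24.97 and 23.86 in untreated αTC1-6 of 24 h. The difference of the negative ΔCt, αTC1-6 minus βTC1, was -0.71 (SE 0.81), and the groups overlapped. It ranked 136th of the 326 miRNAs, close to the median of all of them. In ΔCt, miR-135a* in αTC1-6 lay between 4.61 and 7.77, a range that overlaps that of miR-135a in βTC1 (5.91 to 7.44).

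The contrast between the assays of miR-135a and miR-135a* can be read within each sample. The Ct of miR-135a minus that of miR-135a* was 1.04 ± 0.02 cycles in βTC1 and 7.84 ± 0.97 in untreated αTC1-6 of 24 h (SD, n = 3 each). In the other αTC1-6 groups the means were 9.69 ± 2.12, 8.60 ± 2.25 and 8.21 ± 0.89 for treated 24 h, untreated 48 h and treated 48 h. The 12 αTC1-6 values ranged from 6.94 to 12.09 and those of βTC1 from 1.01 to 1.06. These numbers set a card A assay against a card B assay of unknown efficiency, made from a separate primer pool, while miR-26a was read on card A, so that their size in a sample is not a ratio of molecules, and the comparison between lines was not tested.

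The rat assay of miR-135a* was blank in 4 of 15 samples of the normalized table. Its Ct was 26.40, 27.01 and 26.38 in βTC1 and 28.83 in the single untreated αTC1-6 sample of 24 h with a value. The non-normalized table gave a Ct of 25.19, 27.60 and 28.83 for the 3 untreated αTC1-6 samples of 24 h. The difference between the lines was -0.76 with that table, and -2.77 with the normalized table, which rests on 1 αTC1-6 sample.

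**Figure D2:**
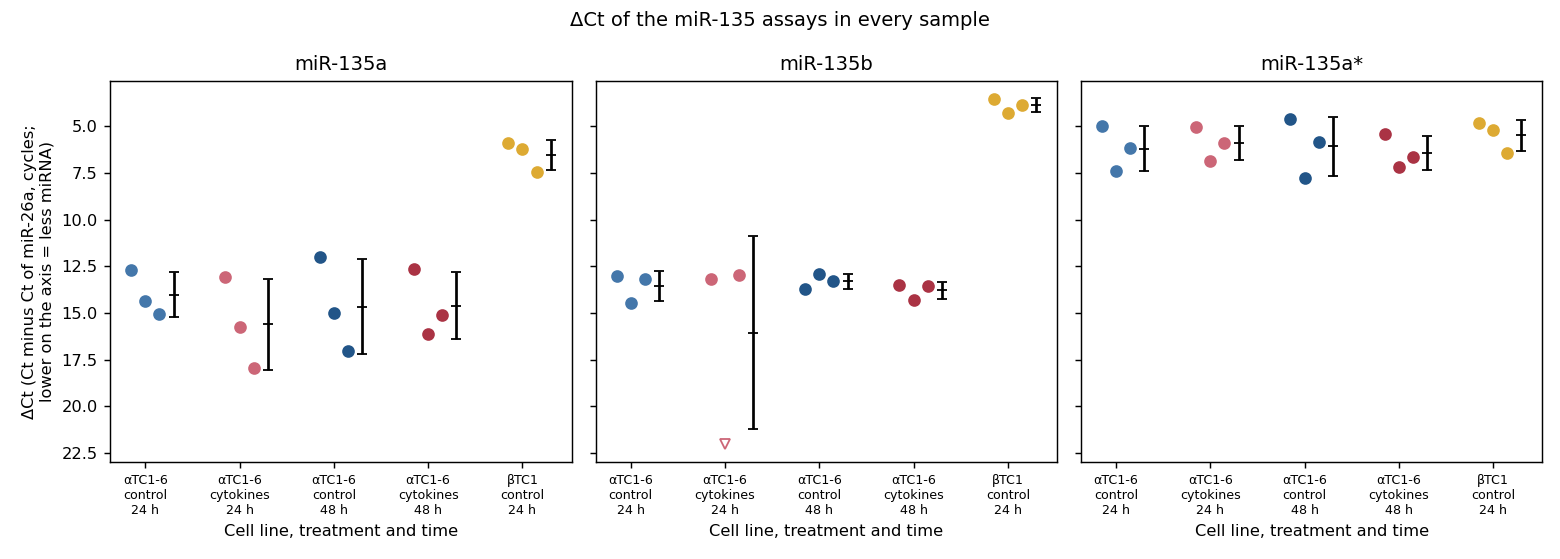
ΔCt of miR-135a, miR-135b and miR-135a* in every sample (points, by cell line, treatment and time), with the mean and SD of the 3 replicates of each group as bars. The y axis runs downward, so that points further down hold less miRNA, and the hollow triangle is the sample with an undetermined well set to a Ct of 40. The guide arms lie at 11.98 or more in every αTC1-6 sample and at 7.44 or less in βTC1, while miR-135a* overlaps between the lines.

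Whether cytokines change the family in αTC1-6 was asked at 24 h and at 48 h post treatment (PT). None of the 4 assays passed limma's test in either comparison. In all, 0.225% of 445 assays passed at 24 h and 0.562% of 534 at 48 h, with adjusted p-values under 0.05 (limma). The counts were 1 and 3 in the fits without the replicate number and 0 and 0 with it as a block. Without the block, 20 of 445 and 60 of 534 assays had an unadjusted p under 0.05 (limma), and 0 of the 4 assays did. With the block, 47 of 443 and 121 of 532 assays did (limma). Among the members, of which 3 were fitted with the block at 24 h, this held only for the rat assay at 48 h PT (limma, adjusted p = 0.129).

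At 24 h PT, the ΔCt of miR-135a was 13.09, 15.76 and 17.97 in the treated cells and 12.68, 14.36 and 15.05 in the untreated. The treated samples were lower by 1.58 on the log2 scale, with a 95% interval from -5.07 to 1.92 (limma, adjusted p = 0.963), and the groups overlapped. Taken by replicate number, the log2 differences of the 3 pairs were -0.40, -1.40 and -2.93, all lower in the treated sample, and with that number as a block the interval ran from -3.56 to 0.40 (limma, adjusted p = 0.466). MiR-135b had a ΔCt of 13.21, 22.04 and 12.95 in the treated and 13.02, 14.50 and 13.20 in the untreated cells, where 22.04 is the undetermined well. Its log2 difference was -2.49 (limma, adjusted p = 0.963), and it rests on that well, since it was 0.49 with the well left out. With the non-normalized table it was -0.53. That table gives the well a ΔCt of 14.06, and it also changes untreated replicate 2, from 14.50 to 12.41. MiR-135a* differed by 0.28, with an interval from -1.75 to 2.31 (limma, adjusted p = 0.970).

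At 48 h PT, the ΔCt of miR-135a was 12.65, 16.14 and 15.09 in the treated and 11.98, 15.002 and 17.02 in the untreated cells. The difference was 0.04, with a 95% interval from -4.08 to 4.15 (limma, adjusted p = 0.990). MiR-135b, with 13.51, 14.30 and 13.54 against 13.72, 12.91 and 13.32, differed by -0.47, and its interval was the narrowest of these at -1.48 to 0.54 (limma, adjusted p = 0.802). MiR-135a* differed by -0.35 (limma, adjusted p = 0.792), and by 0.35 with U6 and snoRNAs as the reference, which turns its direction. The groups overlapped for each of these 3 assays, at 24 h PT and at 48 h PT, while 11.8% and 19.7% of all assays had groups that did not overlap. The rat assay differed by 2.05 at 24 h PT with 1 untreated and 2 treated samples in the fit (limma, adjusted p = 0.914), and by 0.17 with the non-normalized table. At 48 h PT it differed by -1.84 with 2 untreated samples in the fit (limma, adjusted p = 0.421), and by 0.45 with the non-normalized table.

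The spread between replicates was wide for miR-135a. The 12 αTC1-6 samples hold miR-135a and miR-135b at a median Ct of 32.25 and 32.00. The SD of miR-135a in ΔCt was 1.22 to 2.53 in the 4 groups, against a median of 0.66 to 1.62 for other card A miRNAs within 1 cycle of its Ct in the same group. It lay under their upper quartile in untreated cells of 24 h (1.22 against 1.23) and treated cells of 48 h (1.79 against 2.11). In treated cells of 24 h only 4 miRNAs were that near. For miR-135b, leaving out the undetermined well, the SD was 0.18 to 0.80, against medians of 0.62 to 1.23, and the 0.18 rests on 2 samples. At 48 h PT the interval for miR-135a was -2.59 to 2.66 with the replicate number as a block, narrower than without it.

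**Figure D3:**
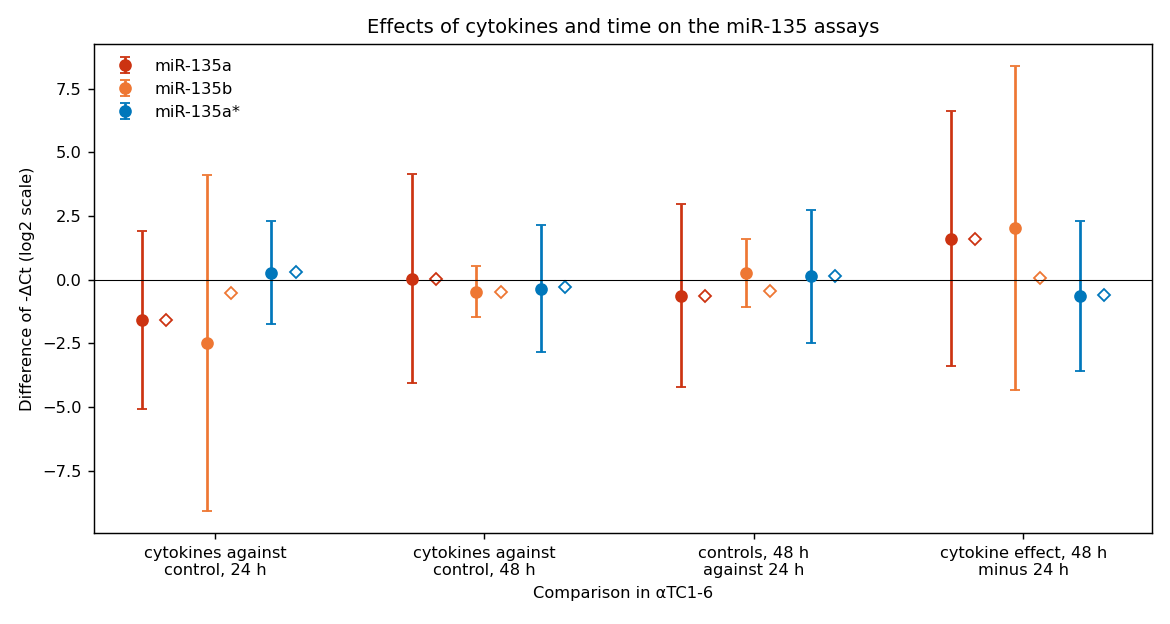
Differences of negative ΔCt (y axis, log2 scale) for miR-135a, miR-135b and miR-135a* in 4 comparisons within αTC1-6 (x axis). Filled circles with bars are the normalized table with 95% intervals, and open diamonds are the non-normalized table, where the value of miR-135b at 24 h is -0.53 in place of -2.49.

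Untreated αTC1-6 at 48 h were set against those at 24 h to ask whether time in culture moves the family. Neither guide arm passed the test, whereas 5.93% of 489 assays did, and the groups overlapped for miR-135a, miR-135b and miR-135a*, against 13.6% of all assays with groups that did not. MiR-135a differed by -0.64, with a 95% interval from -4.23 to 2.96, and miR-135b by 0.26, with one from -1.07 to 1.58 (limma, adjusted p = 0.919 for each). The value of miR-135b was -0.44 with the non-normalized table. MiR-135a* differed by 0.13 (limma, adjusted p = 0.999). The cytokine effect at 48 h minus that at 24 h was 1.62 for miR-135a and 2.02 for miR-135b (limma, adjusted p = 0.992 for each), and -0.63 for miR-135a* (limma, adjusted p = 0.791), and 0.21% of 477 assays passed that test. The miR-135b value became 0.06 with the non-normalized table. The rat assay, with its blanks left out, differed by 2.86 over time (limma, adjusted p = 0.869), and its effects differed by -3.89 (limma, adjusted p = 0.526). With the replicate number as a block the latter was -2.88, with 1 untreated sample of 24 h in the fit. The non-normalized table turned both values of the rat assay, to -1.44 and 0.28.

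The 2 guide arms were also compared with each other within samples, as the Ct of miR-135a minus the Ct of miR-135b. In βTC1 it was 2.39, 1.96 and 3.60, so miR-135b crossed the threshold earlier in all 3 samples. In untreated αTC1-6 of 24 h it was -0.34, -0.13 and 1.84, and of 48 h -1.74, 2.09 and 3.70, so the order of the assays was not the same in all samples. The mean was 2.65 ± 0.85 in βTC1 and 0.46 ± 1.21 in untreated αTC1-6 of 24 h (SD, n = 3 each), and the change of -2.19 between lines is a description only. With the non-normalized table, replicate 2 of untreated αTC1-6 at 24 h was 1.95 in place of -0.13, the mean of that group 1.15 and the change between lines -1.50. Under cytokines the difference changed by -0.92 at 24 h PT (exact permutation test, p = 0.9) and by -0.51 at 48 h PT (exact permutation test, p = 0.8), and between 24 h and 48 h in untreated cells by 0.89 (exact permutation test, p = 0.6). With the non-normalized table the change over time was 0.20 (exact permutation test, p = 0.8). These two-sided tests of 3 against 3 samples took no account of the replicate number and cannot give a p-value under 0.1. The guide arms of miR-135a and miR-135b are near-identical in sequence, and whether an assay also reads the other miRNA was not measured.

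**Figure D4:**
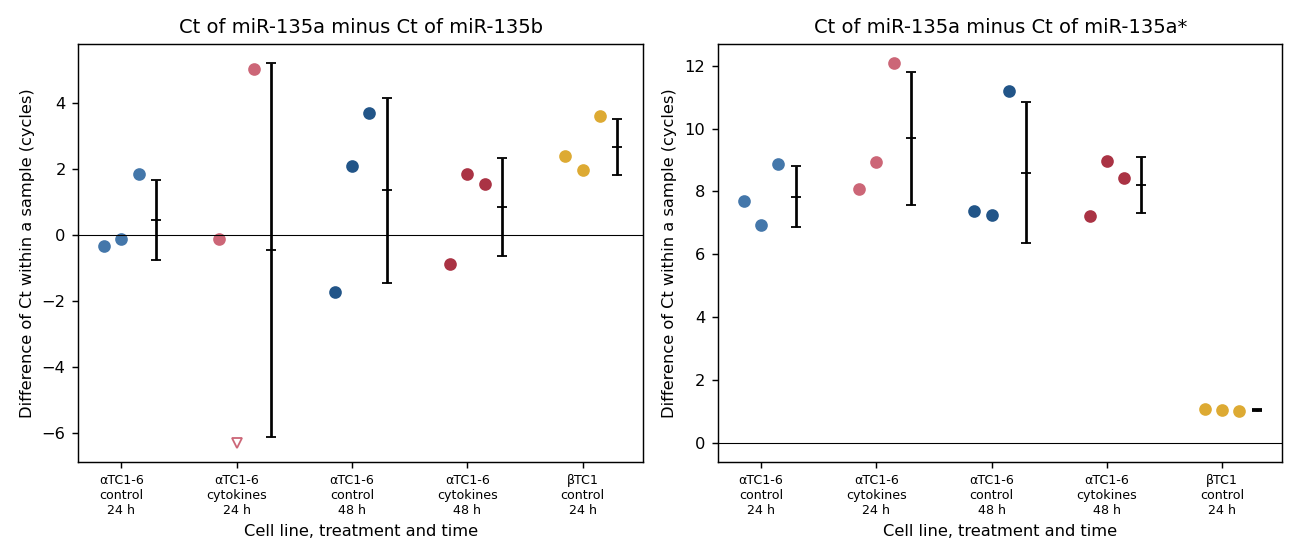
Difference of Ct within each sample (y axis, cycles), for miR-135a minus miR-135b on the left and miR-135a minus miR-135a* on the right, by group (x axis), with the mean and SD of 3 samples as bars and a hollow triangle where the miR-135b well was undetermined. On the right, the βTC1 samples lie between 1.01 and 1.06 and the αTC1-6 samples between 6.94 and 12.09.

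In order of mean ΔCt, miR-135a was highest in βTC1, followed by αTC1-6 untreated at 24 h (14.03), treated at 48 h (14.63), untreated at 48 h (14.67) and treated at 24 h (15.61). The 4 αTC1-6 groups overlapped with each other, and only βTC1 stood apart. For miR-135b the order was βTC1, then αTC1-6 untreated at 48 h (13.32), untreated at 24 h (13.57), treated at 48 h (13.78) and treated at 24 h (16.07), with the αTC1-6 groups overlapping too. The last place rests on the undetermined well, since the mean of treated cells at 24 h was 13.08 over the 2 samples with a Ct. With the non-normalized table the order among αTC1-6 was untreated at 24 h (12.88), untreated at 48 h (13.32), treated at 24 h (13.41) and treated at 48 h (13.78).

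Among the miRNA genes near those of the family, Mirlet7g lies 2 entries from Mir135a-1 in the gene table, and no measured miRNA gene lies among the 20 entries on either side of Mir135a-2 or Mir135b. Let-7g, a member of the let-7 family, had a ΔCt of 3.30 in untreated αTC1-6 and 2.66 in βTC1 at 24 h, the latter over 2 samples with a value, and let-7g* had 12.02 and 10.91. The difference was -0.65 for let-7g and -1.10 for let-7g*, beside -7.51 for miR-135a.

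The profiles most like the mean of miR-135a and miR-135b, by the root mean square difference of centred negative ΔCt, were looked for among 276 miRNAs with a Ct in all 15 samples. MiR-218 (1.40), miR-31 (1.57), miR-139-5p (1.71), miR-465b-5p (2.14) and miR-878-5p (2.15) came nearest over the 15 samples, against a median of 3.85 over all 276. Between miR-135a and miR-135b themselves the difference was 2.64, and 1.74 with the non-normalized table. That value sets a member against the other and not against their mean, so it cannot be compared with those listed. Each of the 5 miRNAs was lower in αTC1-6, with differences from -5.12 to -8.09. The guide arms were selected on that contrast and the 15 samples include it, so the shared direction is not a separate result. Over the 12 αTC1-6 samples alone, miR-210 (1.11), miR-34c (1.16), miR-31 (1.20), miR-30c (1.21) and miR-375 (1.22) came nearest, against a median of 1.67. With the non-normalized table, 3 of the 5 names stayed over 15 samples and 0 of 5 over the 12, so the order within αTC1-6 rests on the table used. In the normalized table, the mean of miR-135a and miR-135b includes the undetermined miR-135b well, set to a Ct of 40.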

How the data were processed

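The 15 samples, untreated βTC1 at 24 h and αTC1-6 with or without cytokines at 24 h and 48 h, were run on TaqMan rodent cards A and B after reverse transcription and preamplification with primer pools. The authors deposited ΔCt values, which are on a log2 scale because each Ct is counted in PCR cycles and the Ct of miR-26a is subtracted, and a non-normalized table of Ct values, here treated as another unit. Another table, as deposited, holds the authors' own fold changes and was not used. The methods name several reference genes, but the ΔCt of miR-26a is 0 in all samples.

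Ct was recovered by adding the Ct of miR-26a, undetermined wells were set to a Ct of 40 and blank cells left out. Duplicate wells of the normalized table were averaged. For the mouse miR-135a* assay the non-normalized table repeats the value of the first well, so its values there rest on 1 well. Limma (3.58.1, in R 4.3.3) was fitted to the negative ΔCt of each comparison's own samples. Assays needed a Ct under 40 in at least as many samples as not. P-values were two-sided, from eBayes, adjusted by Benjamini-Hochberg within each card at 0.05. The exact permutation tests were run with scipy 1.17.1. The members, lists and settings were chosen with earlier results of these data known, and the steady-state contrast was used in the choice, so no test of it is given. The named miRNAs are all member assays, the references, the miRNA genes near a Mir135 gene, the 5 most like profiles, markers and comparators. Samples of a shared replicate number were checked by the correlation of their deviations from the group means over 278 miRNAs. It was 0.26 to 0.48 for treated against untreated samples, so the numbers were taken to pair those samples and a block was fitted as an alternative, and -0.04 to 0.24 for untreated cells of 48 h against 24 h. Precision is limited by the 3 replicates and by how many assays gave a Ct. The fit was also run on data simulated from miRNAs with a Ct in all 15 samples, with their SDs shuffled among them. These held no undetermined wells, so that run does not show how the fit serves an assay such as miR-135b. Alternatives were another reference, median centring, no reference, the non-normalized table, undetermined wells as missing, a cap at a Ct of 35, other filters, a pooled fit, a prior that follows the mean, adjustment over both cards and each replicate left out. The star arms were run under the same alternatives, added later, as was the other table for the most like profiles.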

Additional observations from a re-analysis of the deposited data

How the results depend on the processing

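Neither guide arm passed the threshold in any of the 4 tested comparisons within αTC1-6 under any alternative run, with adjusted p-values from limma of 0.466 to 1.0. The lowest adjusted p of the mouse miR-135a* assay was 0.34 and that of the rat assay 0.129. The direction of several small differences did change. For miR-135b it turned at 24 h PT with undetermined wells as missing (0.49), in the time comparison with the non-normalized table (-0.44) and in the difference between cytokine effects with undetermined wells as missing (-0.96). Between the lines miR-135b moved to -9.00 with the non-normalized table. MiR-135a* turned at 48 h PT with U6 and snoRNAs as reference (0.35) or median centring (0.078), and in the difference between cytokine effects with U6 and snoRNAs (0.16). The rat assay turned with the non-normalized table at 48 h PT (0.45), over time (-1.44) and in the difference between effects (0.28), and with 48 h controls in place of 24 h between the lines (0.092). The change of miR-135b minus miR-135a turned with the non-normalized table at 24 h PT (1.05) and between the effects (-1.56), and between the lines it was -1.30 with the 48 h controls. The 24 h PT difference of miR-135b in the normalized table rests on 1 undetermined well of replicate 2. Between the tables miR-135b differed in 2 wells, that one and replicate 2 of untreated αTC1-6 at 24 h (32.04, and 29.96 non-normalized). Only the latter stands in the time and line comparisons, so the shifts of miR-135b there with the non-normalized table rest on it. Other causes were not tested.

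With each replicate left out, miR-135a ranged from -2.84 to -0.39 at 24 h PT, from -1.14 to 1.38 at 48 h PT and from -1.98 to 0.54 over time. MiR-135b ranged from -4.05 to 0.49, from -0.67 to -0.21 and from -0.20 to 0.53 in the same order, and its difference between effects from -0.96 to 3.58. That of miR-135a ranged from 0.43 to 2.96. MiR-135a* ranged from -0.33 to 0.88, from -1.20 to 0.37, from -0.60 to 0.98 and from -1.48 to 0.093. The difference between the guide arms changed by -3.66 to 1.99 at 24 h PT, -2.05 to 0.67 at 48 h PT, -0.28 to 2.44 over time and -2.50 to 3.15 between the effects. Between the lines, miR-135a stayed between -8.18 and -7.00 and miR-135b between -9.97 and -9.24.

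With the replicate number as a block, miR-135a differed by -1.58 at 24 h PT and 0.04 at 48 h PT, and miR-135b by -2.49 and -0.47, and no call on a member changed. The block moved the count of all assays past the threshold from 1 to 0 at 24 h PT and from 3 to 0 at 48 h PT. Over time, 29 assays passed in the normalized table, 2 in the non-normalized table, 0 with undetermined wells as missing, 1 with a Ct in every sample and 0 without replicate 1, 2 or 3 of the untreated cells of 48 h. Between the effects the count was 1, and 0 to 4 over the alternatives. The median of all assays at 48 h PT was -0.51 relative to miR-26a and -0.04 relative to U6 and snoRNAs.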

Other observations

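Many Ct values of the normalized table lie just under a whole cycle. On card A, 43.7% of the 4164 miRNA wells with a Ct had a decimal part of 0.9 or more, and on card B 28.9% of them did, where an even spread would give 10%. Among the wells of miR-135a and miR-135b it was 10 of 29, and among those of the mouse miR-135a* assay 13 of 30. In βTC1, the replicates 2 and 3 of miR-135a (24.96 and 24.97) and of miR-135a* (23.93 and 23.96) lie there too, and the difference between these assays had an SD of 0.02 cycles over the 3 samples. The cause was not tested.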
